A study of Homo sapiens with 2 samples.

Results

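The expression of 10 genes of the Hippo pathway was examined in the human glioblastoma cell line U87 at 72 h of treatment with CCA-1.1 or with its vehicle DMSO. CCA-1.1 is a curcumin analog, and its concentration in this experiment is not given in the sources used here. The cells were wild type by their label and were grown in RPMI with fetal bovine serum in both groups. There was 1 library per condition, so differences cannot be held against a spread between replicates and no p-value is given. The genes are YAP1, WWTR1, TEAD1, LATS1, LATS2, AJUBA, AMOTL2, ANKRD1, CCN1 and CCN2, which are 10 of the 41582 gene symbols with a value. They were chosen by their place in the pathway, with the TPM of both libraries already known, that of ANKRD1 included, so all differences between the libraries are given as descriptions. Values are in TPM, a share of the library scaled by transcript length. TPM does not show how deeply a library was sequenced, and gene values are sums over the transcripts listed for a gene. In such bulk RNA, fewer cells of a kind and less RNA per cell cannot be told apart.

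The Hippo pathway is a kinase cascade that restrains growth when cells are crowded or detached. LATS kinases phosphorylate the coactivators YAP (YAP1) and TAZ (WWTR1), which are then held in the cytoplasm or degraded, whereas unphosphorylated YAP and TAZ enter the nucleus and drive transcription with the TEAD factors. The activity of YAP and TAZ is therefore set mainly on the proteins, and their RNA levels alone do not show it. ANKRD1, CCN1 and CCN2 are widely used as readouts of YAP/TAZ-TEAD transcription, and AMOTL2 and LATS2 are both regulators and targets of the pathway.

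TEAD factors bind the letters GGAATG, which read CATTCC on the opposite strand. Promoter windows of RefSeq on GRCh38.p14, from 250 bases before to 50 bases after a start site, matched 8 of the 10 genes with 12 windows, since some genes have more than 1 start. TEAD1 and CCN1 had no window. The motif was found on either strand in 6 of the 12 windows, and in 4928 (14.03%) of the 35116 windows of all genes. CCN2 had the motif 3 times, which 0.128% of all windows reached, and ANKRD1 had it 2 times, a number that 1.37% of all windows reached or passed. AMOTL2, YAP1, LATS2 and AJUBA each had 1 motif, in AMOTL2 and AJUBA in 1 of their 2 windows, and neither the windows of LATS1 nor those of WWTR1 held it. The 250 bases before the start are shown, 5' to 3' on the strand of the gene and with the motif in capitals, for the target genes ANKRD1 and CCN2, whose levels differed in opposite directions, and for AMOTL2. They lie at chr10:90921088-90921337, chr6:131951373-131951622 and chr3:134374448-134374697, all on the minus strand.
ANKRD1: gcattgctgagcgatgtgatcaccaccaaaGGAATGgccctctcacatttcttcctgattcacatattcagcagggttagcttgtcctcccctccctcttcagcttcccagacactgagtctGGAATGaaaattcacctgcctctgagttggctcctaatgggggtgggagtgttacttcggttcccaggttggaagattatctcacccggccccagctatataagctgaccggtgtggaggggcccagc
CCN2: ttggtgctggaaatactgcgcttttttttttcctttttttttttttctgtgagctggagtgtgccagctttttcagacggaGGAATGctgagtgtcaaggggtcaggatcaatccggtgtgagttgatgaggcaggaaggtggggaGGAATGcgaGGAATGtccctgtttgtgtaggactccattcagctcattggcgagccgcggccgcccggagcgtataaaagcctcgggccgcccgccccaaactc
AMOTL2: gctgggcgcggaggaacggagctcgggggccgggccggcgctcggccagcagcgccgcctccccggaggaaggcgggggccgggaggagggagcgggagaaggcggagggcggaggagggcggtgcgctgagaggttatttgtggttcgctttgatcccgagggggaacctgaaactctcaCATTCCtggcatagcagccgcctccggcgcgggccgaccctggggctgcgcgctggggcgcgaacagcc
In ANKRD1 the motifs began 220 and 128 bases before the start, in CCN2 they began 169, 104 and 95 bases before it, and in AMOTL2 the motif lay on the opposite strand, 69 bases before the start. In LATS2 it lay 10 bases after the start. For AP-1 the letters TGANTCA were searched, with any base at N. They were found as TGATTCA in ANKRD1, where they did not overlap the TEAD motifs, and as TGAATCA in 1 of the 2 windows of LATS1. Neither match had the C or G at N of the usual AP-1 site, so no window of the genes held that stricter site. Of all windows, 7.71% held the searched letters with any base at N, and the share for the stricter site was not computed. No window of the genes held a CArG box, the site of the serum response factor, which 1.29% of all windows held. These matches describe the letters only.

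Levels of the 10 genes spanned a wide range in both libraries. TPM is a value per length, so levels can be compared between genes. CCN1 was the highest in both libraries, at 247 TPM with DMSO and 208 TPM with CCA-1.1, and was above 95.4% of the 12041 protein-coding genes that averaged 1 TPM or more over both libraries, by its DMSO value. CCN2 and AMOTL2 came next in both. They were followed by TEAD1, YAP1, WWTR1, AJUBA, LATS2, ANKRD1 and LATS1 in the DMSO library. With CCA-1.1, AJUBA stood above WWTR1 and ANKRD1 stood above LATS2, and the other places were the same. WWTR1 and AJUBA were only 2.04 TPM apart in the DMSO library and 1.95 TPM apart in the CCA-1.1 library, and whether such neighbours differ cannot be judged without replicates. All 10 genes together held 658 TPM with DMSO and 597 TPM with CCA-1.1.

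**Figure D1:**
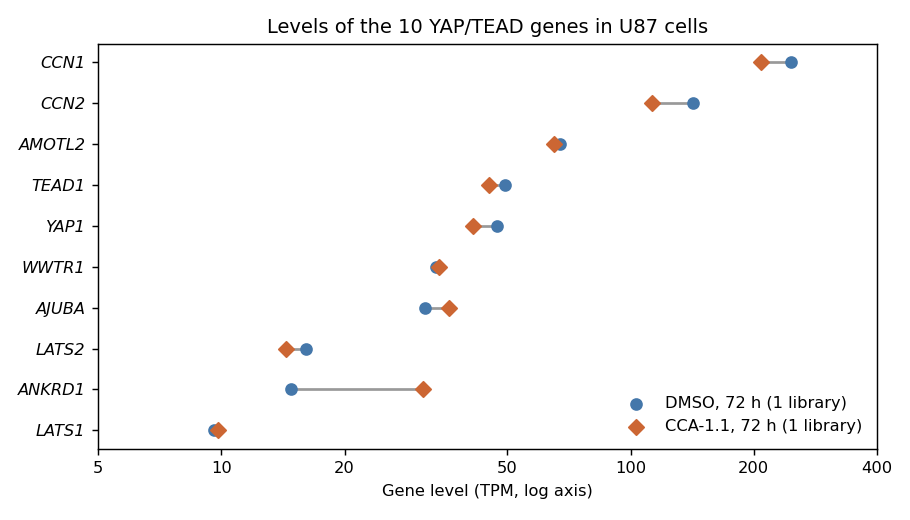
Gene level in TPM on a log axis for the 10 genes, with circles for the DMSO library and diamonds for the CCA-1.1 library, 1 library each and without error bars. The line of ANKRD1 runs from 14.8 to 31.0 TPM, and the lines of the other 9 genes are short.

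ANKRD1 was the only gene of the 10 more than 2-fold apart between the libraries. It encodes a muscle ankyrin repeat protein found in the nucleus and at the sarcomere, and it lies on chromosome 10 from 90912096 to 90921087 of GRCh38.p14. Its level was 14.8 TPM with DMSO and 31.0 TPM with CCA-1.1, a ratio of 2.10. On the scale used for all differences below, log2((CCA-1.1 TPM + 1) / (DMSO TPM + 1)), this is 1.02, just past the threshold of 1. Of the 12041 protein-coding genes, 15 had a larger difference. By this criterion, 0.149% of them were higher and 0.191% were lower in CCA-1.1, against 1 higher and 0 lower among the 10 genes. At a threshold of 1.5-fold in either direction, ANKRD1 remained the only gene of the 10, against 1.70% of all.

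CCN1 and CCN2 were both lower in the CCA-1.1 library, by less than 2-fold. CCN1 (CYR61), a secreted protein of the extracellular matrix, lies on chromosome 1 from 85580761 to 85583950. It was at 247 TPM with DMSO and 208 TPM with CCA-1.1, a difference of -0.25. CCN2 (CTGF, connective tissue growth factor), on chromosome 6 from 131948176 to 131951372, was at 142 TPM with DMSO and 113 TPM with CCA-1.1, a difference of -0.33. In the distribution of all 12041 genes, the 5th percentile was -0.31 and the 95th was 0.36, so CCN2 lay just below this range, CCN1 inside it and ANKRD1 above it. The remaining 7 genes were inside it as well. ANKRD1 thus stood closer to the other target genes with CCA-1.1. The CCN1 level was 16.7 times that of ANKRD1 with DMSO and 6.70 times that in CCA-1.1, while the ratio of CCN1 to CCN2 was 1.74 with DMSO and 1.84 in CCA-1.1. ANKRD1, CCN1 and CCN2 are listed with 1 transcript each, so no division of reads among transcripts of the gene enters their values.

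**Figure D2:**
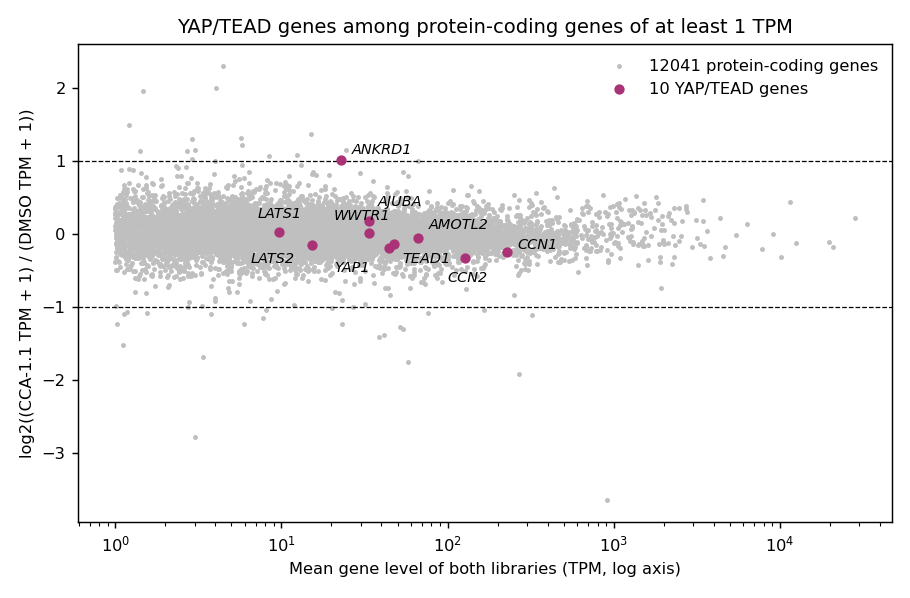
Difference between the libraries, log2((CCA-1.1 TPM + 1) / (DMSO TPM + 1)), against the mean level in TPM on a log axis, for 12041 protein-coding genes (grey) and the 10 genes (labelled). Dashed lines mark 2-fold; ANKRD1 lies just above the upper line at 1.02, and the other 9 genes lie between -0.33 and 0.19.

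Relatives of these targets were read beside them. An exchange of reads between similar genes in pseudo-alignment was not tested. The other muscle ankyrin repeat genes were much lower than ANKRD1. ANKRD23 was at 3.18 TPM with DMSO and 2.93 TPM with CCA-1.1, and ANKRD2 was at 0.05 TPM with DMSO and listed at 0 in CCA-1.1. In the CCN family the differences went both ways. CCN3 (NOV) was at 64.6 TPM with DMSO and 52.6 TPM with CCA-1.1, a difference of -0.29, and CCN4 (WISP1) was at 4.42 and 2.97 TPM, a difference of -0.45. CCN5 (WISP2) was higher with CCA-1.1, at 22.5 TPM with DMSO and 31.5 TPM with CCA-1.1, a difference of 0.47. CCN6 was at 0.09 and 0.25 TPM.

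The coactivators and TEAD1 differed little. YAP1, on chromosome 11 from 102110447 to 102233424, was at 47.1 TPM with DMSO and 41.2 TPM with CCA-1.1, a difference of -0.19. WWTR1, on chromosome 3 from 149517235 to 149724788, was at 33.5 TPM with DMSO and 34.0 TPM with CCA-1.1, a difference of 0.02. The YAP1 level was thus 1.41 times that of WWTR1 with DMSO and 1.21 times in CCA-1.1, and their sum was 80.6 and 75.2 TPM. TEAD1, on chromosome 11 from 12674421 to 12944737, encodes the DNA-binding partner of both, and it was at 49.4 TPM with DMSO and 45.2 TPM with CCA-1.1, a difference of -0.13. It held 68.9% of the summed level of TEAD1 to TEAD4 with DMSO and 67.0% in CCA-1.1. TEAD3 was at 12.5 and 11.6 TPM, TEAD4 at 9.67 and 10.5 TPM, and TEAD2 at 0.10 and 0.08 TPM. The VGLL proteins compete with or assist YAP on TEAD factors. VGLL4, which competes with it, was at 37.0 TPM with DMSO and 34.1 TPM with CCA-1.1, VGLL3 was at 28.7 and 27.0 TPM, and VGLL1 was listed at 0 in both.

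The LATS kinases had the lowest levels among the pathway regulators in the group. LATS1, on chromosome 6 from 149658153 to 149718101, was at 9.61 TPM with DMSO and 9.82 TPM with CCA-1.1, a difference of 0.03. LATS2, on chromosome 13 from 20973036 to 21061586, was at 16.1 TPM with DMSO and 14.4 TPM with CCA-1.1, a difference of -0.15. Together they were at 25.7 and 24.2 TPM, so that YAP1 and WWTR1 transcripts outnumbered those of the kinases 3.13 to 1 with DMSO and 3.11 to 1 in CCA-1.1. AJUBA and AMOTL2 act on these kinases or on YAP itself. AJUBA, a LIM domain protein that binds and restrains LATS kinases, lies on chromosome 14 from 22971177 to 22982551, and it was at 31.5 TPM with DMSO and 36.0 TPM with CCA-1.1, a difference of 0.19. After ANKRD1, this was the highest difference of the 10 genes. AMOTL2, an angiomotin family protein that binds YAP at cell junctions, lies on chromosome 3 from 134355345 to 134375417, and it was at 67.2 TPM with DMSO and 64.9 TPM with CCA-1.1, a difference of -0.05. Over all 10 genes, 4 were higher and 6 were lower in CCA-1.1, with a median difference of -0.09, against a median of 0.02 and 46.0% lower genes among the 12041 protein-coding genes.

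By single transcripts, YAP1 and LATS1 passed 2-fold as well as ANKRD1. The table lists 59 transcripts of the 10 genes, of which 50 were above 0 in at least 1 library. Of these 50, 3 were higher and 4 were lower by more than 2-fold, which is 14%, against 4.05% of all transcripts above 0. These shares are not matched for level. With a pseudocount of 1 TPM, a transcript below 1 TPM in both libraries cannot pass, so an excess among the 10 genes does not follow. YAP1 held 5 of the 7, among 14 transcripts. The predicted YAP1 transcript XM_005271380.4 was at 5.91 TPM with DMSO and 0.10 TPM with CCA-1.1, whereas XM_005271381.4 was at 0.04 TPM with DMSO and 4.02 TPM with CCA-1.1. Their sum was 5.95 and 4.12 TPM, a difference of -0.44. The curated transcript NM_001282097.2 was higher in CCA-1.1 (0.33 and 2.17 TPM). NM_001282098.2 was at 2.44 TPM with DMSO and XM_011542555.3 at 1.15 TPM, and both were listed at 0 in CCA-1.1. The most abundant transcripts of YAP1 were NM_001195044.2, with 29.5% of the gene with DMSO and 34.7% in CCA-1.1, and NM_001130145.3, with 21.7% and 20.4%, and neither differed by more than 2-fold.

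LATS1 combined a level total with unlike transcripts. NM_004690.4, the most abundant of its 18 transcripts, was at 2.74 TPM with DMSO and 6.41 TPM with CCA-1.1, a difference of 0.99, and its share of the gene was 28.5% and 65.3%. The predicted transcript XM_047419518.1 was at 2.55 TPM with DMSO and was listed at 0 in CCA-1.1. Both together were at 5.29 and 6.41 TPM. When only the curated transcripts of LATS1 were summed, those with NM_ or NR_ identifiers, the gene was at 4.56 TPM with DMSO and 7.87 TPM with CCA-1.1, a difference of 0.67 instead of 0.03. For LATS2 the same sum gave 14.1 and 11.6 TPM, a difference of -0.27, and its curated transcript NM_014572.3 was the most abundant of the gene. Kallisto divides reads that match several transcripts among them by estimation, and the part of this division in the differences between transcripts was not tested. The other genes rested mainly on 1 transcript. WWTR1 transcript NM_015472.6 was at 32.5 TPM with DMSO and 32.0 TPM with CCA-1.1, AMOTL2 transcript NM_016201.4 at 62.0 and 60.3 TPM, and AJUBA transcript NM_032876.6 at 26.4 and 30.4 TPM. TEAD1 is listed with 1 transcript, NM_021961.6.

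**Figure D3:**
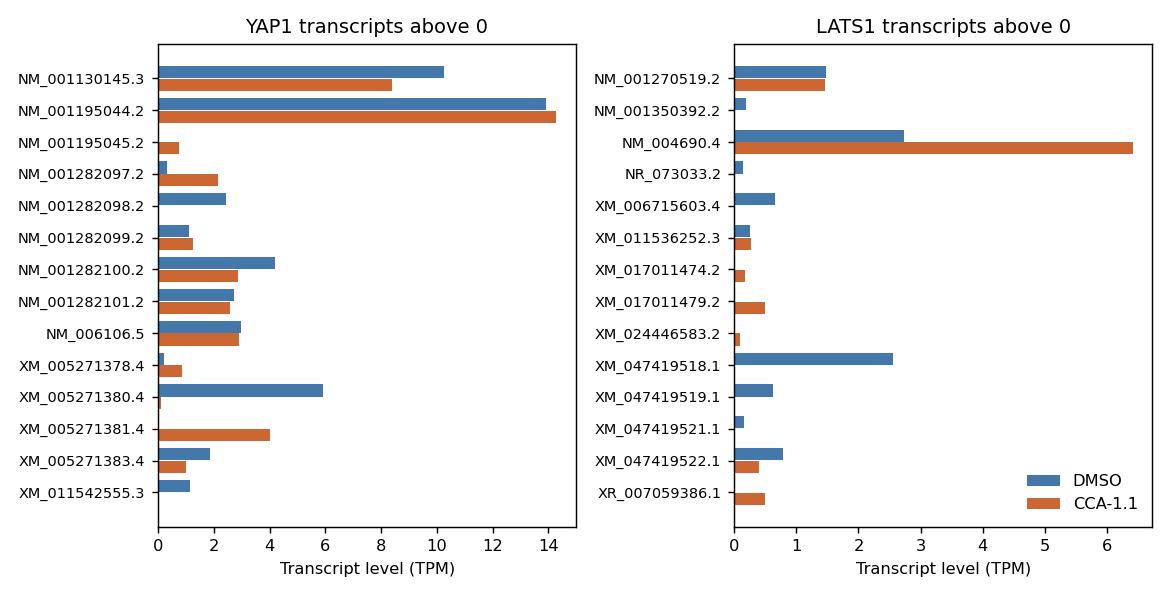
Level in TPM of each YAP1 and LATS1 transcript above 0 in at least 1 library, with 1 bar for the DMSO library and 1 for the CCA-1.1 library. Bars of XM_005271380.4 and XM_005271381.4 in YAP1 change places, and in LATS1 the bar of NM_004690.4 runs from 2.74 to 6.41 TPM while that of XM_047419518.1 is absent in CCA-1.1.

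Other genes reported as YAP/TAZ targets were mostly lower in the CCA-1.1 library by small amounts, like CCN1 and CCN2 and unlike ANKRD1. A target signature of 22 genes holds 5 of the 10 genes. Of its 17 other genes, 16 averaged 1 TPM or more, and 13 of these were lower and 3 were higher, with a median difference of -0.17, and none passed 2-fold. NT5E, the ecto-nucleotidase CD73, had the lowest difference, at 96.5 TPM with DMSO and 71.5 TPM with CCA-1.1 (-0.43). CRIM1, a transmembrane protein that binds bone morphogenetic proteins, was at 169 and 136 TPM (-0.31). IGFBP3, a binding protein of insulin-like growth factors, had the highest difference, at 229 TPM with DMSO and 297 TPM with CCA-1.1 (0.37). GADD45A, a stress-induced growth arrest gene, had the highest level, at 325 and 301 TPM. FOXF2 was listed at 0 in both libraries. Including the 5 genes described above, 17 of 21 signature genes were lower, which is 81.0%, with a median of -0.15, against 46.0% lower and a median of 0.02 among all 12041 protein-coding genes and 48.8% lower among the 7906 that averaged 10 TPM or more.

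Of 8 further targets, 5 averaged 1 TPM or more and 4 of these were lower. WNT5A, a ligand of noncanonical Wnt signalling, was at 59.1 and 43.2 TPM (-0.44), and BIRC5, the mitotic protein survivin, was at 2.15 and 1.14 TPM (-0.56). ARHGAP29, a GTPase-activating protein of RhoA, was higher, at 6.91 and 7.74 TPM. AREG was listed at 0 in both libraries. These lists were compared with all genes by their counts and medians alone, so nothing particular to them follows.

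On the scale used for all differences, the upstream regulators of the pathway were within 2-fold as well. Among the upstream kinases and scaffolds, 8 of 17 genes with at least 1 TPM were higher and 9 were lower, with a median of -0.02. NF2 (merlin), the scaffold that brings LATS kinases to the membrane, was at 13.0 TPM with DMSO and 9.80 TPM with CCA-1.1, the lowest difference of its list with -0.38. MAP4K4, a kinase that acts on LATS in parallel to the MST kinases, was at 50.6 and 60.4 TPM (0.25). The MST kinases themselves were level, STK3 (MST2) at 37.9 and 38.4 TPM and STK4 (MST1) at 58.2 and 59.4 TPM. MOB1A, a cofactor of the LATS kinases, had the highest level of the list, at 116 and 119 TPM.

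In the STRIPAK complex, a phosphatase assembly that opposes the MST kinases, 10 of 14 genes were higher, with a median of 0.07. The rest were lower or equal in both libraries. STK26 (MST4), a kinase of the complex, was at 19.8 and 25.5 TPM (0.35), PPP2CA, the catalytic subunit, was at 70.2 and 68.0 TPM (-0.05), and STRN4 had the highest level at 75.3 and 81.4 TPM. Of the LIM, angiomotin and 14-3-3 regulators, 4 of 10 were higher and 6 were lower. Proteins of the 14-3-3 family hold phosphorylated YAP in the cytoplasm. Some of their genes gave the highest levels of the list, with YWHAZ at 483 TPM with DMSO and 450 TPM with CCA-1.1. YWHAB was at 273 and 223 TPM (-0.29), whereas SFN, of the same family, was at 0.47 and 0.27 TPM. AMOTL1 was at 4.04 and 4.72 TPM (0.18). Among cadherin and polarity genes, FAT1, an atypical cadherin, was at 0.74 TPM with DMSO and 2.12 TPM with CCA-1.1, a difference of 0.84. This is a ratio of 2.86, which the pseudocount of 1 TPM brings under the threshold. LLGL1 had the lowest difference of that list, at 51.6 and 49.3 TPM (-0.07), and DLG1 the highest level, at 69.3 and 70.7 TPM. In total the lists held 98 different genes, of which 79 averaged 1 TPM or more and 0 passed 2-fold. Among all 12041 protein-coding genes, 0.149% were higher and 0.191% were lower by that criterion, so a count of 0 is not particular to these lists. Below the 5th percentile of all protein-coding genes were 7 of the 79, and 3 were above the 95th.

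Markers of glioblastoma lines and of other cell types were read in both libraries. VIM was at 3217 TPM with DMSO and 3106 TPM with CCA-1.1, CHI3L1 at 4947 and 4397 TPM and CD44 at 607 and 473 TPM, while the astrocyte markers GFAP (0.41 and 0.57 TPM) and S100B (0 in both) were near or at 0. NES was at 7.53 and 7.62 TPM and SOX2 at 1.87 and 1.45 TPM. OLIG2, an oligodendrocyte lineage marker, was at 5.64 and 7.03 TPM. Leukocyte and endothelial markers summed to at most 3.93 TPM, epithelial markers to 22.7 and 25.4 TPM, most of it KRT8, and neuronal markers to 18.3 and 20.5 TPM. The part of these in the results was not tested. Noncoding genes that overlap the 10 genes were low where they had a value, the highest being LOC124903287 within AJUBA at 1.54 and 2.09 TPM and WWTR1-AS1 at 0.95 and 0.67 TPM. Antisense reads cannot be told apart without strand, and CCN2-AS1 and TEAD1-AS1 were not analysed here.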

How the data were processed

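U87 cells were treated for 72 h with CCA-1.1 or DMSO, with 1 library per condition. After mRNA enrichment and Illumina sequencing, the authors ran FastQC 0.11.9 and MultiQC 1.1 (submitters' processing notes) and estimated transcript levels by Kallisto pseudo-alignment on GRCh38.p14. The deposited values are TPM. The authors applied edgeR, which needs counts; no count test was run here. Of 177816 transcripts, 169966 were matched to gene symbols of the RefSeq table of GRCh38.p14 (169411 with the version), and TPM was summed per gene. Differences are log2((CCA-1.1 TPM + 1) / (DMSO TPM + 1)), called beyond 1 or below -1, a scale that understates changes of low genes. Lists and background took genes that averaged 1 TPM or more. Named genes were the 10 genes, all CCN and ankyrin repeat relatives, and in each list those past 2-fold and those with the highest difference, the lowest difference or the highest level. CRIM1, VGLL3, VGLL1, TEAD2, TEAD3, STK3, STK4, SFN, WNT5A, FOXF2, AREG, DLG5, the cell markers singled out and the overlapping noncoding genes were named after their values were seen. One gene that this rule names is not reported here. Members and lists were chosen with earlier results of these data known. The depth is unknown, so no interval is given. The calculation was tested on simulated data, with changes far past the threshold and little noise on genes of at least 10 TPM. This checks the code only and does not bear on values near the threshold or on low genes. Alternatives were the pseudocount, scaling, minimum level, curated transcripts and fold threshold. Python 3.11.15, numpy 2.4.6, pandas 2.3.3, scipy 1.17.1 and matplotlib 3.10.9 were used.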

Additional observations from a re-analysis of the deposited data

How the results depend on the processing

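All alternatives were set at the same time as the main analysis. ANKRD1 was past 2-fold under each of them, with a difference from 1.02 to 1.07, and was the only gene of the 10 past the threshold in each, also at 1.5-fold. Of these alternatives, only the scaling could have brought ANKRD1 below the threshold. Its only transcript is curated, its mean of 22.9 TPM passes each minimum, and a smaller pseudocount or a lower threshold cannot take it out. Of 50 recomputed differences of the 10 genes, none changed sign and 2 moved by more than 0.1, both with curated transcripts only, where LATS1 was at 0.67 and LATS2 at -0.27. Most of these signs were fixed in advance. A pseudocount cannot change a sign, and all transcripts of AJUBA, AMOTL2, ANKRD1, CCN1, CCN2 and TEAD1 are curated, so their curated sums were the same. The median over the 10 genes ran from -0.13 (minimum mean of 10 TPM, without LATS1) to -0.08. Of the genes in the pathway lists, 0 passed 2-fold in the main analysis; 1 passed with a pseudocount of 0.1 or 0.01 TPM, with no pseudocount or at 1.5-fold, each time FAT1, and 1 with curated transcripts only, DLG5, at 3.28 TPM with DMSO and 0.79 TPM with CCA-1.1. Among transcripts of the 10 genes, 7 passed 2-fold in the main analysis, 18 with a pseudocount of 0.1 TPM, 25 with 0.01 TPM, 7 with no pseudocount, where transcripts at 0 in either library were left out and NM_004690.4 of LATS1 was among those that passed, 12 at 1.5-fold, 3 among curated transcripts and 1 with a minimum mean of 10 TPM. The share of all transcripts past the threshold was computed for the main setting only, so these transcript counts show nothing particular to the 10 genes. Median-ratio scaling applied a factor of 0.997, a shift of -0.004 on the log2 scale before the pseudocount. No paired analysis was possible because each condition had a single library, which could not be left out either. TPM keeps no read depth, which limits all values near 0.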
